A study of Mus musculus with 12 samples.

Results

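Supraclavicular brown fat (scBAT) was compared with epididymal white fat (eWAT) by RNA sequencing of mouse tissue. The comparison takes the 3 libraries labelled scBAT and the 3 labelled eWAT, 6 of the 12 libraries of the series. The other 6 are 3 of interscapular brown fat (iBAT) and 3 of inguinal white fat (iWAT), and they serve here for a shared estimate of the spread and for levels set side by side. All 4 depots came from male C57BL/6 mice aged 8 weeks that were kept at ambient temperature and received no treatment, and the labels name no mutant allele or transgene. scBAT is a brown pad of the neck and eWAT an intra-abdominal white pad beside the epididymis. The labels do not say whether the 3 libraries of a depot came from separate animals, so the p-values measure the spread between these samples, which may be technical. In whole tissue, fewer cells of a type and less RNA per cell cannot be told apart.

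Brown adipocytes hold many mitochondria and small lipid droplets. On sympathetic stimulation, noradrenaline raises cyclic AMP, fatty acids are released from the droplets, and the uncoupling protein Ucp1 lets protons return across the inner mitochondrial membrane so that the energy is given off as heat. White adipocytes store triglyceride in a single large droplet and secrete hormones such as leptin, and epididymal fat is covered by mesothelium, the flat epithelium that lines the body cavity.

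Total counts were 17555857, 19890543 and 18073423 in scBAT libraries 1 to 3 and 25998176, 23793792 and 29262554 in eWAT libraries 1 to 3. Levels are in CPM, the count relative to a library size scaled by TMM, a method that equalises libraries over most genes. Differences are log2(scBAT) minus log2(eWAT) with a standard error (SE), and a gene is said to have risen or fallen in scBAT where its adjusted p was under 0.05 in the quasi-likelihood F test of edgeR over 14898 tested genes.

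In each depot at least 1 library carried genes of a neighbouring or unrelated tissue. scBAT library 1 had more skeletal muscle RNA than the other scBAT libraries. The 27 muscle genes summed to 8378, 2964 and 2583 CPM in scBAT and to 191, 242 and 388 CPM in eWAT, and none of the 27 was at 0 in scBAT. Salivary gland genes, 14 on the list, summed to 8927, 14729 and 3238 CPM in scBAT and to 485, 3295 and 481 CPM in eWAT, so that eWAT library 2 reached the level of scBAT library 3. In that library the median of the 10 tested salivary genes was 22.3 times the mean of the other eWAT libraries. It was also the highest of the eWAT libraries for 27 of 31 brown thermogenic genes, at a median of 1.82 times the others, whereas 33.1% of all tested genes were highest there. Genes of the intestinal epithelium, 16 chosen after the values were seen, summed to 971 CPM in eWAT library 3 and to at most 3.89 CPM in the other eWAT libraries. Fabp2, the intestinal fatty acid binding protein, stood at 158 CPM in eWAT library 3, at 0.119 CPM in eWAT library 2 and at 0 in eWAT library 1 and in all scBAT libraries. The part of these tissues in each result was not tested, and where leaving out 1 library moved a list's larger count by over 1.5 times, that count is given beside it.

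**Figure D1:**
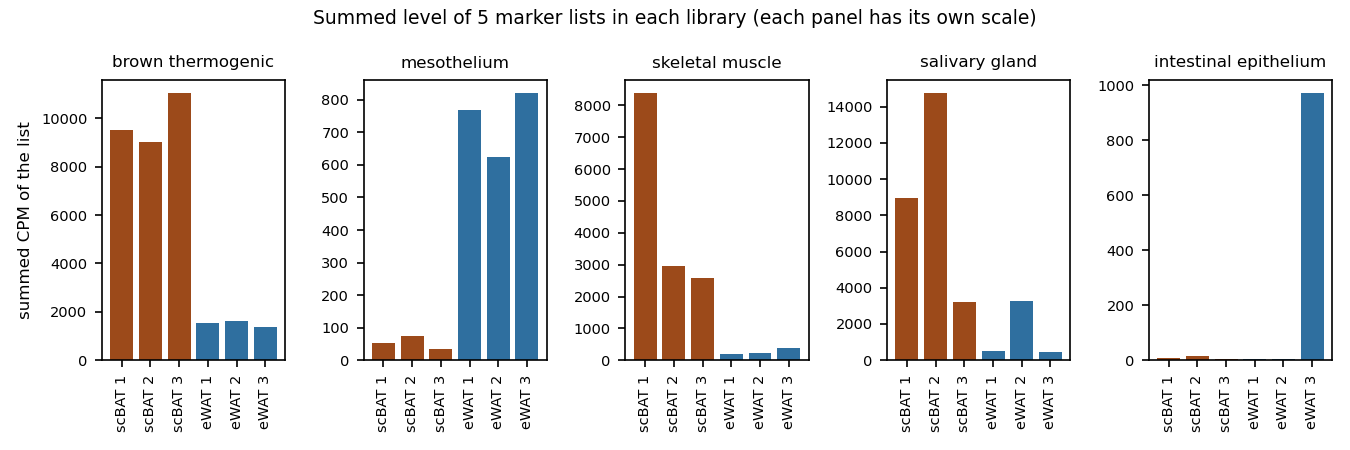
Summed CPM of 5 marker lists in the 3 scBAT (brown) and 3 eWAT (blue) libraries, each panel on its own linear scale from 0. The brown and mesothelial lists separate the depots, whereas muscle stands highest in scBAT library 1, salivary genes vary within both depots, and intestinal genes appear in eWAT library 3.

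Adipocyte markers followed the depot labels in every library. Ucp1 and Cidea were higher in the 3 scBAT libraries and Retn, Sncg and Slc7a10 in the 3 eWAT libraries. Plin1, a droplet coat protein of all adipocytes, was abundant in all 6, at 1060, 1089 and 1217 CPM in scBAT and 1400, 1462 and 1241 CPM in eWAT. Genes that define the epididymis itself were at or near 0 in eWAT, with 11 listed genes at 0 in its 3 libraries. Crisp1, a secreted protein known from epididymis and salivary gland, had the order of the salivary genes, at 177, 451 and 43.3 CPM in scBAT against 0.745, 36.8 and 1.03 CPM in eWAT.

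Between scBAT and eWAT, 7731 genes passed the threshold, 51.9% of those tested. Of all tested genes, 26.0% were higher in scBAT (3880 genes) and 25.8% were lower (3851 genes), and these shares are the background for each count of list members that follows. At 2-fold or more, 1860 genes (12.5%) were higher and 2602 (17.5%) lower. The median difference over all genes was -0.04. The scBAT and eWAT libraries did not overlap for most of the 14898 tested genes, 5216 of them higher in scBAT and 5667 lower. A lack of overlap, where given for single genes, therefore describes their values and adds little to the test. Without scBAT library 1 and eWAT library 3 together the genes lower in scBAT numbered 2498.

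Genes of heat production were higher in scBAT. Of 31 tested members of the brown thermogenic list 28 rose, at a median log2 difference of 4.18, and only Adrb3 fell. Ucp1 (chr8:83290352-83298452 in GRCm38) was measured at 1949, 1559 and 2399 CPM in scBAT and at 24.2, 87.7 and 24.8 CPM in eWAT. The depots did not overlap, and eWAT library 2 was the highest of the eWAT libraries. The difference was 5.43 (SE 0.57, adjusted p = 2.64e-05). Cidea, which codes for a lipid droplet protein of brown adipocytes, stood at 1712, 1618 and 1903 CPM in scBAT against 28.3, 105 and 32.2 CPM in eWAT, a difference of 4.99 (SE 0.64, adjusted p = 9.80e-05). Both genes thus had the same high library within eWAT. Elovl3, an elongase of very long fatty acids that is induced by cold, was at 7.39, 23.5 and 17.4 CPM in scBAT and at 0.213, 0.555 and 0.157 CPM in eWAT, 5.72 higher (SE 0.63, adjusted p = 3.86e-05).

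Larger still was the difference of Dio2 (chr12:90724552-90738438 in GRCm38), the type II deiodinase, which converts thyroxine to its active form. Its level was 98.0, 168 and 184 CPM in scBAT and 1.03, 2.97 and 1.07 CPM in eWAT, 89.9-fold apart (log2 6.49, SE 0.45, adjusted p = 2.44e-06). Otop1, a proton channel gene of brown fat, followed with 173, 225 and 270 CPM against 1.63, 5.79 and 1.82 CPM (6.19, SE 0.69). Slc27a2, a very long-chain acyl-CoA synthetase and transporter, reached 249, 259 and 311 CPM against 2.48, 7.34 and 4.01 CPM (5.89, SE 0.57). Acot11, an acyl-CoA thioesterase that is also called brown-fat-inducible thioesterase, stood at 284, 377 and 340 CPM against 4.01, 8.88 and 5.77 CPM (5.75, SE 0.33). In each of these 4 genes eWAT library 2 was the highest eWAT library and was under every scBAT library. Kcnk3, a potassium channel of brown adipocytes, Letmd1, a mitochondrial inner membrane protein, Gyk, glycerol kinase, and Pank1, a kinase of coenzyme A synthesis, were higher by 3.48, 3.30, 3.89 and 4.87. Fabp3, a fatty acid binding protein, rose by 5.21 and S100b, which codes for a neurotrophic protein, by 4.85. Ebf2 and Zic1 were the listed genes that did not pass: Ebf2, a factor of brown fate, was at 94.5, 169 and 148 CPM against 65.4, 74.5 and 70.2 CPM (0.97, SE 0.43, adjusted p = 0.0784), with depots that did not overlap. Zic1, a marker of the interscapular pad, was at most 0.683 CPM in any of the 6 libraries.

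**Figure D2:**
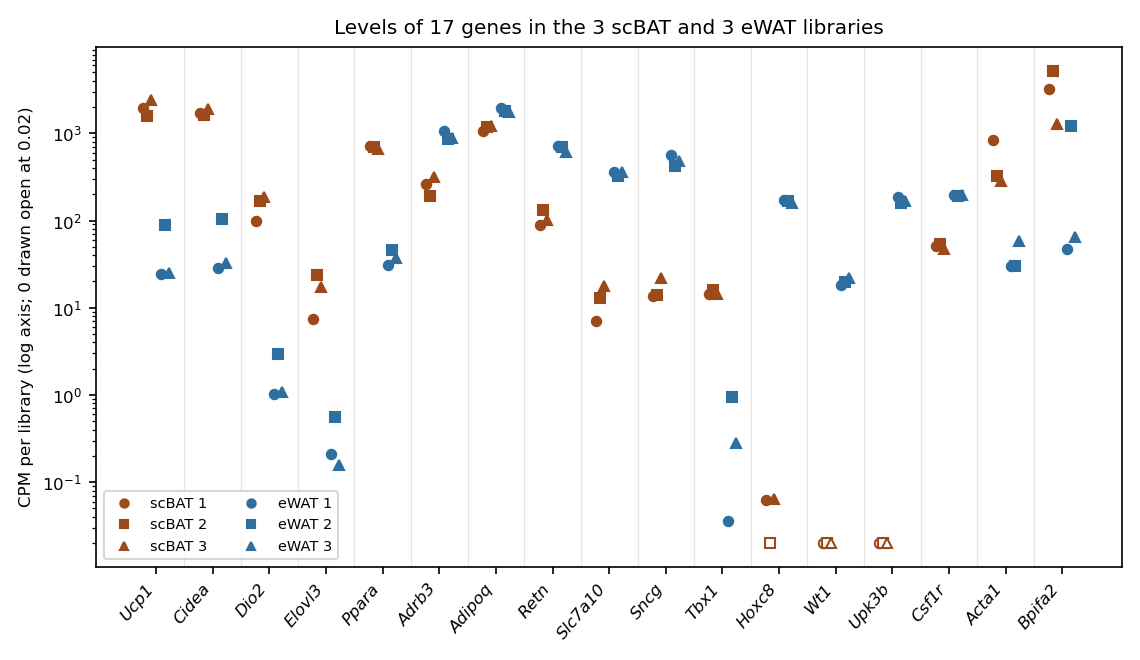
CPM of 17 genes in each library on a log axis, scBAT in brown and eWAT in blue, with 1 symbol per library and a count of 0 drawn as an open symbol at 0.02. Ucp1, Cidea, Dio2, Elovl3, Ppara and Tbx1 are higher in all scBAT libraries, and Adrb3, Retn, Slc7a10, Sncg, Hoxc8, Wt1, Upk3b and Csf1r in all eWAT libraries.

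Adrenergic receptors, which sense noradrenaline from sympathetic nerves, differed in both directions. Of 9 adrenergic receptors 5 rose and 3 fell, and 3 rose when any of scBAT library 2, scBAT library 3, eWAT library 1 or eWAT library 2 was left out. Adrb3, the beta-3 receptor typical of rodent adipocytes, was lower in scBAT, with 260, 189 and 314 CPM against 1076, 851 and 876 CPM (-1.88, SE 0.35, adjusted p = 0.00127). Adrb1, the beta-1 receptor, was higher there by 1.58 (SE 0.42, adjusted p = 0.00936). Per kilobase of exon, Adrb3 was at 75.3 RPKM in scBAT and at 277 RPKM in eWAT. RPKM here is the mean CPM divided by the length of the merged exons in kilobases. The alpha-1 receptor Adra1a had the largest rise of the list, from 6.78, 8.01 and 6.27 CPM in eWAT to 110, 93.7 and 130 CPM in scBAT (3.99, SE 0.42, adjusted p = 2.84e-05). Adra2a, an alpha-2 receptor that inhibits adenylyl cyclase, fell by 3.03 (SE 0.74) from levels of 1.90 to 2.52 CPM.

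Adenylyl cyclases and their partners differed in both directions. Of 27 cyclic AMP genes 12 rose and 6 fell. Adcy3 was at 176, 246 and 256 CPM in scBAT and 30.6, 33.5 and 34.3 CPM in eWAT (2.78, SE 0.26, adjusted p = 1.46e-05), whereas Adcy5 was at 17.6, 42.6 and 36.5 CPM in scBAT and 205, 256 and 273 CPM in eWAT (-2.92, SE 0.53, adjusted p = 0.000996). Each depot thus had 1 of these 2 cyclases at the higher level in all its libraries. Prkaca, the catalytic subunit of protein kinase A, rose by 1.26 (SE 0.26), and Pde4d, which breaks down cyclic AMP, rose by 3.73 (SE 0.24).

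Of 23 receptors for other signals that tune lipolysis 11 fell in scBAT and 1 rose, at a median of -0.65. Oxtr, the oxytocin receptor, stood at 1.37, 1.51 and 1.01 CPM in scBAT and 34.7, 27.2 and 40.9 CPM in eWAT (-4.71, SE 0.47, adjusted p = 2.09e-05). Tshr, the thyrotropin receptor, stood at 8.32, 5.99 and 7.42 CPM against 177, 156 and 152 CPM (-4.48, SE 0.50). These 2 receptors were 26.2-fold and 22.3-fold higher in eWAT with no overlap. The succinate receptor Sucnr1 fell by 4.33, the short-chain fatty acid receptor Ffar2 by 4.12, the glucagon receptor Gcgr by 3.27 and the natriuretic peptide clearance receptor Npr3 by 3.11. Klb, the co-receptor of Fgf21, was the member that rose (1.43, SE 0.35, adjusted p = 0.00641).

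Thyroid hormone genes other than Dio2 moved less. Of 9 tested members 5 rose and 1 fell. Thrb, the beta receptor, was higher in scBAT by 1.02 (SE 0.26), whereas Thra, the alpha receptor, was at 127, 99.1 and 118 CPM against 100, 100 and 96.2 CPM and did not pass (adjusted p = 0.488). The proximal promoter of Dio2 is shown because it carries a cyclic AMP response element, the sequence bound by CREB proteins. It is the 250 bases before the RefSeq start site (chr12:90739039-90739288 in GRCm38.p6, minus strand), with the element, 95 bases before the start, and a TATA box, 30 bases before it, in capitals.
Dio2: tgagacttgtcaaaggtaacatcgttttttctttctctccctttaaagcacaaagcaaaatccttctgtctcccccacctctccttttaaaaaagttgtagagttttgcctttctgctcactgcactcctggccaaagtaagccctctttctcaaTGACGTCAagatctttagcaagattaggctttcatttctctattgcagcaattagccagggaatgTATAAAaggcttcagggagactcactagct
The cyclic AMP response element searched was TGACGTCA, which reads the same on both strands, and the TATA box was TATAAA on either strand. Over the window from 250 bases before to 50 bases after the start, 387 of 11756 promoters of tested genes held the former (3.29%) and 1114 the latter (9.48%). Among genes higher in scBAT by at least 2-fold, 3.32% of 1477 promoters held the response element.

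Nuclear genes of oxidative phosphorylation, the chain of enzyme complexes that pumps protons and makes ATP, rose with few exceptions. Subunits encoded by mitochondrial DNA were not analysed here. Across the nuclear genes 79 of 84 rose and 3 fell, with a median difference of 1.96. All 35 tested subunits of complex I rose (median 2.03), as did all 13 of complexes II and III (2.22), 17 of 19 of complex IV with cytochrome c and 14 of 17 of ATP synthase. Ndufs8, a complex I subunit, was at 352, 326 and 386 CPM in scBAT and at 64.1, 73.7 and 58.0 CPM in eWAT (2.44, SE 0.16, adjusted p = 1.69e-06). Uqcrc1, a core subunit of complex III, was at 1559, 1388 and 1739 CPM against 277, 314 and 245 CPM (2.49, SE 0.24, adjusted p = 1.61e-05). All scBAT libraries were above all eWAT libraries for both genes, and eWAT library 2 was the highest in its depot. The ATP synthase subunits Atp5a1 and Atp5b rose by 1.99 and 1.63.

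Atpif1, an inhibitor of ATP synthase, was at 16.3, 15.7 and 19.6 CPM in scBAT and 33.0, 30.2 and 34.5 CPM in eWAT (-0.92, SE 0.12, adjusted p = 0.000126). Atp5g1, 1 of the genes for the c subunit, fell by 0.69 (SE 0.19, adjusted p = 0.0110). Cox4i2, a form of a complex IV subunit found in lung, fell by 0.51 (adjusted p = 0.0481), a call that was lost when any of the 6 libraries was left out, with adjusted p between 0.0514 and 0.166. The c subunit genes have close copies in the genome, so their counts are uncertain. The gain extended to mitochondrial translation, where 75 of 76 ribosomal protein genes rose at a smaller median of 1.09, and Mrpl35 as an example rose by 1.43 (SE 0.14). All 18 genes of the tricarboxylic acid cycle rose, at a median of 2.36, and Sdha, Sdhb, Sdhc and Sdhd among them are also counted under complexes II and III. Cs, citrate synthase, was higher by 2.26, and the succinyl-CoA ligase subunits Sucla2 and Suclg1 by 3.16 and 2.93.

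**Figure D3:**
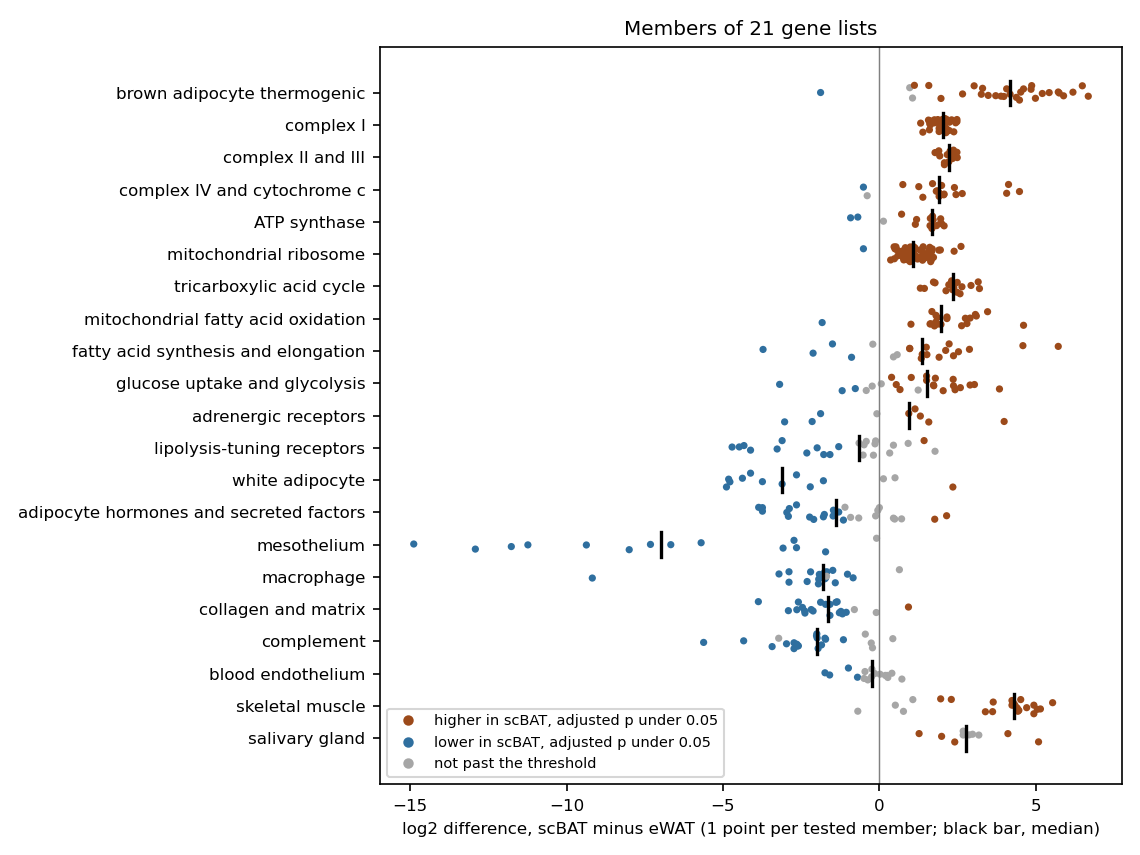
Each point is the log2 difference, scBAT minus eWAT, of 1 tested member of the named gene list, brown where it rose and blue where it fell at an adjusted p under 0.05, and the black bar is the list's median. Mitochondrial lists have medians of 1.09 to 2.36, with a few members below 0, and the mesothelial list reaches farthest to the left, at a median of -7.00.

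Promoters of 2 oxidative phosphorylation genes are shown because they hold the palindromic core of the binding sequence of NRF1, a factor of respiratory genes. The letters searched were CGCATGCG, the same on both strands. They were chosen after values were seen, and after a search with a longer form whose matches are a subset of these. Of 66 promoters of oxidative phosphorylation genes that rose, 10 held them (15.2%), against 456 of 11756 over all tested genes (3.88%), 60 of 1477 genes higher in scBAT by at least 2-fold (4.06%) and 24 of 1964 lower by as much (1.22%). Mitochondrial ribosomal protein genes that rose held them in 7 of 66 promoters (10.6%). The cyclic AMP response element occurred in 5 of these 66 oxidative phosphorylation promoters (7.58%). Both sequences are RefSeq, GRCm38.p6, and give the 250 bases before the start with the matches in capitals. In Ndufa11 (chr17:56717512-56717761, plus strand), an accessory subunit of complex I, the NRF1 letters begin 59 bases and a cyclic AMP response element 158 bases before the start. In Cox6a1 (chr5:115348959-115349208, minus strand), a complex IV subunit, the NRF1 letters begin 161 bases before it.
Ndufa11: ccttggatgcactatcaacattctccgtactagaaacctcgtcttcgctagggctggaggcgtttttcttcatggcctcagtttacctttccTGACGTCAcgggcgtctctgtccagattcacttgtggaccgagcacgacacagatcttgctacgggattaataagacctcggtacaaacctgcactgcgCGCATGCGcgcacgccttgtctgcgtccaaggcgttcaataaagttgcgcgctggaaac
Cox6a1: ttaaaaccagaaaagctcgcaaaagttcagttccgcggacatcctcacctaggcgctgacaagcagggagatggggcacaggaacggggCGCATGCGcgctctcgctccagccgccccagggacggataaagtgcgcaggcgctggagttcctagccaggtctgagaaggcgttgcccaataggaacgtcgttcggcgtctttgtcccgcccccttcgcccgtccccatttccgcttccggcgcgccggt
A match describes the letters and was not tested for binding, and the transcript differences of the 2 genes were 1.76 and 2.07.

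Genes for burning fatty acids and genes for making them were both higher in scBAT. Of 21 tested genes of mitochondrial fatty acid oxidation 20 rose, at a median of 1.97. Hadhb, a subunit of the trifunctional protein, was at 2147, 1962 and 2400 CPM in scBAT and 233, 299 and 225 CPM in eWAT (3.10, SE 0.31, adjusted p = 2.09e-05). Acadvl, the very long-chain dehydrogenase, rose by 3.07 and Acaa2, the thiolase, by 3.46. Cpt1a, a form of the enzyme that admits fatty acids to the mitochondrion, was the member that fell, from 118, 135 and 137 CPM in eWAT to 34.5, 39.0 and 36.3 CPM in scBAT (-1.83, SE 0.09, adjusted p = 5.25e-07). Of 21 genes of fatty acid synthesis and elongation 14 rose and 4 fell. Fasn, fatty acid synthase, was at 16554, 18499 and 16806 CPM against 3781, 4588 and 2651 CPM in eWAT (2.23, SE 0.33, adjusted p = 0.000259). Scd1, the desaturase that makes monounsaturated fatty acids, was at 25665, 24168 and 28534 CPM against 10478, 10901 and 9581 CPM (1.34, SE 0.32, adjusted p = 0.00478). Neither gene overlapped between the depots. Acly, which makes cytosolic acetyl-CoA, rose by 2.37 and Elovl6 by 4.59. The desaturases Fads3 and Fads1 went the other way, by -3.72 and -2.12, and Fads3 stood at 59.2, 56.1 and 57.3 CPM against 763, 766 and 747 CPM.

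Triglyceride genes differed less than these. Of 20 members 7 rose and 1 fell, and 13 rose where the variable iWAT libraries were left out of the fit. Gpd1, which makes glycerol-3-phosphate, rose by 2.05 (SE 0.34) and its mitochondrial counterpart Gpd2 by 3.72 (SE 0.29). Dgat1 and Dgat2, which complete triglyceride synthesis, did not pass: Dgat2 was at 2310, 2432 and 2818 CPM against 1912, 1992 and 1612 CPM (adjusted p = 0.224, and 0.00116 without the iWAT libraries). Mogat1, a monoacylglycerol acyltransferase, fell by 2.25 (SE 0.33).

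Glucose genes rose in the main, with 17 higher and 3 lower of 24. Slc2a4, the insulin-dependent glucose transporter, was at 829, 952 and 823 CPM in scBAT and 329, 305 and 284 CPM in eWAT (1.51, SE 0.35, adjusted p = 0.00475). Slc2a3, a transporter typical of neurons and blood cells, was at 5.28, 3.59 and 5.84 CPM against 45.7, 39.5 and 49.0 CPM (-3.19, SE 0.24). Ldhb rose by 3.04 and Ldha, the other lactate dehydrogenase subunit, by 1.02. In RPKM, the level of Ldhb was 421 beside 488 for Ldha in scBAT, and 51.3 beside 241 in eWAT. Glycogen genes rose in 11 of 14 cases. Pygm, muscle glycogen phosphorylase, was at 288, 92.8 and 77.5 CPM in scBAT, 3.39 times higher in library 1 than in the mean of libraries 2 and 3, as were muscle genes (median 2.85 times). Gbe1, the branching enzyme, rose by 1.91 and was level in scBAT at 579, 560 and 544 CPM. Gys2, a glycogen synthase known from liver, rose by 2.24.

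Some genes of the creatine and calcium cycles were highest in scBAT library 1, as muscle genes were, and the part of muscle in their differences was not tested. Of 24 tested muscle genes 20 rose, and 5 rose with the replicate number as a block in a fit of the 6 libraries alone. That fit was added after the data were seen, and whether the replicate numbers pair the samples is not known. Ckm and Ckmt2, the creatine kinases of muscle, rose by 4.94 and 4.11, and their values in scBAT library 1 were 3.22 and 2.82 times those of the other scBAT libraries. In that blocked fit their adjusted p was 0.0597 and 0.0936. Ckb, the brain form that also acts in fat, was at 28.3, 20.2 and 28.9 CPM in scBAT and 61.6, 45.2 and 49.9 CPM in eWAT (-1.02, SE 0.25, adjusted p = 0.00570), and Gamt, which makes creatine, fell by 1.93. Among calcium pumps, Atp2a1 of muscle had 1119, 384 and 324 CPM in scBAT, whereas Atp2a2 was even among replicates at 367, 393 and 418 CPM against 231, 231 and 235 CPM (0.76, SE 0.15, adjusted p = 0.00160).

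Related forms of an enzyme or carrier differed in direction in some families. Among 40 families of paralogues, 15 had at least 1 member that rose and 1 that fell, 10 had all tested members higher and 1 had all lower. With 26.0% of all genes higher and 25.8% lower, families of several members can hold both directions at the background rate, and nothing is read from the count of 15. Ucp2, a relative of Ucp1 found in many tissues, was at 78.3, 93.3 and 73.3 CPM in scBAT and 221, 204 and 222 CPM in eWAT (-1.40, SE 0.24, adjusted p = 0.000714), and Ucp3, the form known from muscle, at 160, 204 and 230 CPM against 43.0, 46.2 and 61.2 CPM (1.98, SE 0.44, adjusted p = 0.00325). For Ucp3, scBAT library 1, where muscle genes stood highest, was the lowest of the scBAT libraries. The part of muscle in its difference was not tested. Pdk4, a kinase that shuts pyruvate dehydrogenase, was at 1518, 1429 and 2094 CPM in scBAT and 52.0, 101 and 82.3 CPM in eWAT (4.42, SE 0.54, adjusted p = 6.76e-05), whereas Pdk3 fell by 2.63 (SE 0.32). Hk2 rose by 1.73 and Hk1 fell by 0.77 among hexokinases, and Me3 rose by 4.79 and Me2 fell by 1.38 among malic enzymes. Plin5, a droplet coat protein of oxidative tissues, rose by 3.98 and Plin4 fell by 1.52, with Plin1 at 1060, 1089 and 1217 CPM against 1400, 1462 and 1241 CPM (adjusted p = 0.489). Slc27a2 rose and Slc27a3 fell by 1.47 among fatty acid transport proteins. Rxrg rose by 1.27 and Rxra fell by 0.96 among the retinoid X receptors, partners of the PPARs. In complex IV both Cox8 forms rose, Cox8b by 4.07 and Cox8a by 1.39, as did both forms of Cox7a, Cox7a1 by 4.48 and Cox7a2 by 1.90. In RPKM, Cox8b was at 1071 beside Cox8a at 1231 in scBAT, and at 63.8 beside 471 in eWAT. Cpt1b rose by 4.61 from a few counts, to 0.555 RPKM in scBAT, where Cpt1a was at 4.79 RPKM. The annotation and strand setting of the counting are not given, so the 2 forms are not ranked by these levels. The branched-chain aminotransferases Bcat1 and Bcat2 fell, by 2.86 and 0.74, and the latter call was lost when scBAT library 1, 2 or 3 or eWAT library 1 or 2 was left out, with adjusted p of 0.0618 to 0.0951.

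**Figure D4:**
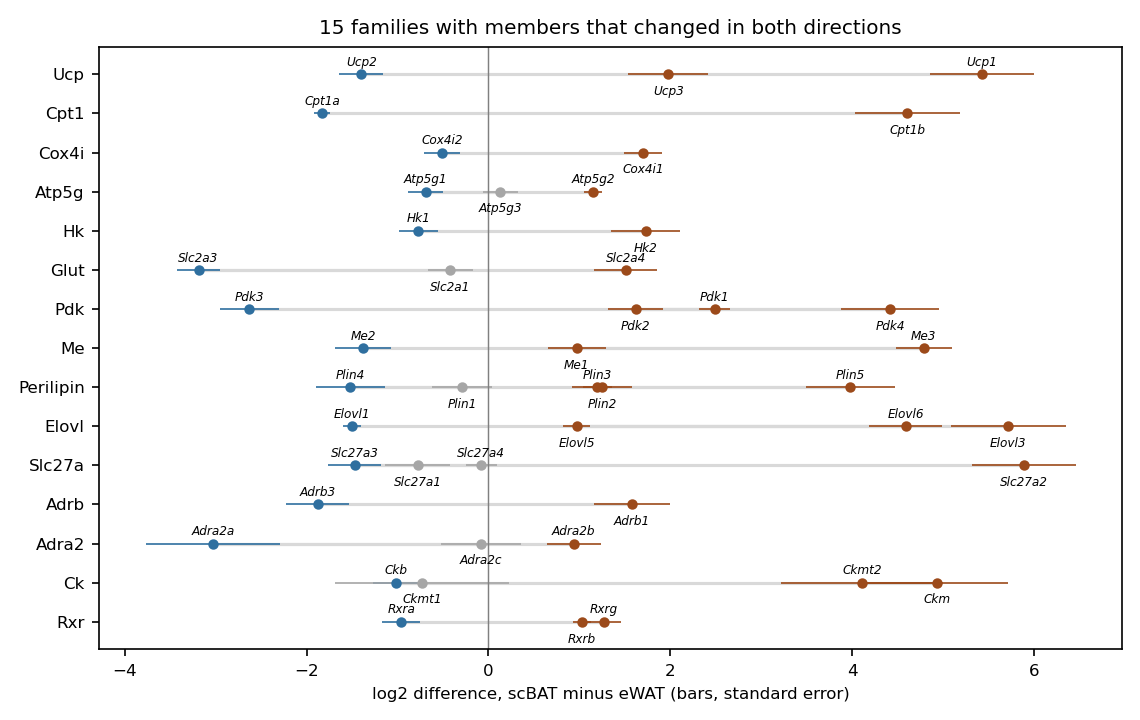
log2 difference, scBAT minus eWAT, with its standard error for members of the 15 families in which members changed in both directions, brown for higher, blue for lower and grey for genes that did not pass. The widest spreads are in fatty acid transport (Slc27a2 at 5.89, Slc27a3 at -1.47), elongases (Elovl3 at 5.72, Elovl1 at -1.50) and pyruvate dehydrogenase kinases (Pdk4 at 4.42, Pdk3 at -2.63).

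Regulators of mitochondria were in the main higher in scBAT, whereas those of adipocyte fate differed in both directions. Of 17 PPAR, ERR and coactivator genes 10 rose and 1 fell. Ppara, a nuclear receptor of fatty acid oxidation, was at 724, 690 and 655 CPM in scBAT and 30.5, 46.4 and 37.1 CPM in eWAT (4.18, SE 0.42, adjusted p = 2.21e-05). Ppargc1a and Ppargc1b, the coactivators of mitochondrial genes, rose by 3.03 (SE 0.27) and 3.72 (SE 0.17), and the estrogen-related receptors Esrra, Esrrg and Esrrb by 1.97, 4.38 and 3.26. Nrip1, a corepressor that acts against this program, fell from 81.5, 133 and 103 CPM to 26.2, 30.0 and 25.1 CPM (-1.96, SE 0.29, adjusted p = 0.000279). Of 24 adipocyte fate regulators 6 rose (25.0%) and 7 fell (29.2%), at a median of 0.19, shares near the 26.0% and 25.8% of all tested genes. Without the iWAT libraries 11 rose, and without scBAT library 2 and eWAT library 2 together 4 fell. Pparg, the master regulator of adipocytes, was at 399, 412 and 441 CPM against 372, 307 and 263 CPM (0.41, SE 0.31, adjusted p = 0.290), and Cebpa at 760, 847 and 951 CPM against 747, 747 and 664 CPM (0.25, SE 0.30, adjusted p = 0.514). Pparg passed where the iWAT libraries were left out (adjusted p = 0.0156). Prdm16, a factor of brown and beige identity, stood at 40.4, 56.9 and 86.9 CPM against 7.77, 11.9 and 9.47 CPM (2.66, SE 0.37, adjusted p = 0.000170). Cebpb rose by 2.15 and Irf4, a factor of thermogenic and fasting responses, by 1.54. Foxc2, a forkhead factor, fell by 3.75 from low levels of 1.66 to 3.25 CPM, Rbl1, a relative of the retinoblastoma protein, by 1.61 and Cebpd, an early factor of adipocyte differentiation, by 1.52.

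White adipocyte genes were mostly lower in scBAT. Of 13 tested members 10 fell, at a median of -3.11, and Cish, a feedback inhibitor of cytokine signals, rose by 2.35 (SE 0.63), a call lost without scBAT library 2 and eWAT library 2 together (adjusted p = 0.0866). Sncg, which codes for gamma-synuclein, was at 13.5, 13.9 and 21.8 CPM in scBAT and 561, 417 and 485 CPM in eWAT (-4.89, SE 0.45, adjusted p = 1.18e-05). Slc7a10, an amino acid transporter used as a surface marker of white adipocytes, was at 7.02, 13.0 and 17.8 CPM against 359, 322 and 360 CPM (-4.78, SE 0.51). Retn, the hormone resistin, was at 87.7, 132 and 101 CPM against 713, 700 and 605 CPM (-2.65, SE 0.34). None of the 3 genes overlapped. Nnat, an imprinted gene, fell by 4.82 and Mest, another, by 4.38. Psat1, an enzyme of serine synthesis, was at 12.0, 17.6 and 8.31 CPM against 218, 237 and 208 CPM (-4.12, SE 0.33).

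Hormones and secreted factors were lower in scBAT in 15 of 26 cases and higher in 2. Lep, leptin, was at 466, 284 and 238 CPM in scBAT and 1300, 909 and 1205 CPM in eWAT (-1.79, SE 0.54, adjusted p = 0.0170), and the call was lost without scBAT library 2 (adjusted p = 0.0630) or scBAT library 3 (0.0700). Adipoq, adiponectin, was at 1063, 1172 and 1227 CPM against 1935, 1810 and 1731 CPM. The depots did not overlap, but the difference of -0.66 (SE 0.28) did not pass (adjusted p = 0.0672), and it did without the iWAT libraries (4.60e-05). Inhbb, an activin subunit, fell by 2.91, whereas Nampt, an enzyme of NAD synthesis that is also secreted, rose by 1.77 (SE 0.26). Large differences in absolute level in favour of eWAT were those of Trf, transferrin, at 207, 259 and 286 CPM against 3128, 2902 and 2768 CPM (-3.55, SE 0.37), Gsn, gelsolin, at 1360, 1379 and 1558 CPM against 5850, 5218 and 5108 CPM (-1.91), and Cyp2e1 (-2.72). The Lep promoter is shown as that of a white adipocyte hormone with a C/EBP palindrome, TTGCGCAA on both strands, which 38 of 11756 promoters held (0.323%). It is the 250 bases before the RefSeq start (chr6:29059971-29060220 in GRCm38.p6, plus strand) with the palindrome, 55 bases before the start, in capitals.
Lep: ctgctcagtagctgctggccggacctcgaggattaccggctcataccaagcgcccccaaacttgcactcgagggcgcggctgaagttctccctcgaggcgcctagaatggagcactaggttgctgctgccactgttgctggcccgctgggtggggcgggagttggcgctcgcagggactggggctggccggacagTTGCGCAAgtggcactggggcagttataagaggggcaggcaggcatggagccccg
Among genes lower in scBAT by at least 2-fold, 7 of 1964 promoters held the palindrome (0.356%). Of the C/EBP genes given above, Cebpb rose, Cebpd fell and Cebpa did not pass the threshold. Transcripts of Lep were 3.46-fold lower in scBAT, and binding to its promoter was not tested.

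The Hox genes, which keep a record of position along the body axis, separated the neck pad from the abdominal pad. Low paralogue numbers are expressed from more anterior levels and high numbers from more posterior ones. Of 13 tested Hox genes numbered 1 to 5, 2 rose and 4 fell, and of 15 numbered 6 and above, none rose and 11 fell, a division made after the values were seen. Of the latter 15, none rose in DESeq2 or limma-voom either, 13 were lower and none higher at an unadjusted p under 0.05 in edgeR, and DESeq2 called 12 lower. Hoxa4 was at 20.4, 18.9 and 20.8 CPM in scBAT and 4.08, 5.04 and 4.20 CPM in eWAT (2.17, SE 0.24, adjusted p = 4.00e-05), and its neighbour Hoxa5 rose by 0.93 (SE 0.19, adjusted p = 0.00241). Hoxa7 was at 0.497, 0.896 and 0.952 CPM in scBAT and 19.4, 16.7 and 16.2 CPM in eWAT (-4.47, SE 0.39, adjusted p = 9.25e-06). The change of direction thus fell between Hoxa5 and Hoxa6, the latter being lower by 3.34. In the Hoxb cluster Hoxb4 was level at 13.4, 10.5 and 11.9 CPM against 11.0, 10.6 and 10.7 CPM, and Hoxb5, Hoxb6, Hoxb7 and Hoxb8 were lower by 2.45, 4.63, 4.81 and 5.81. Hoxb9 had no count in scBAT and stood at 2.02, 1.86 and 2.54 CPM in eWAT, at least 35.9-fold higher when scBAT is set to 3 counts in all.

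The Hoxc cluster gave the largest contrast. Hoxc8 (chr15:102990607-102994111 in GRCm38) had 0.0621, 0 and 0.0634 CPM in scBAT and 173, 168 and 157 CPM in eWAT, a ratio of 4118 with a 95% counting interval of 1140 to 34006 (adjusted p = 7.20e-07). Hoxc9 had no count in scBAT and 7.06, 4.76 and 4.52 CPM in eWAT, at least 90.0-fold higher. Hoxc4, Hoxc5 and Hoxc6 were lower by 3.27, 3.05 and 5.05, and their transcripts overlap in the annotation, so their counts are uncertain. Hoxd8 did not pass (0.12, adjusted p = 0.606), and Hoxd9 fell by 1.61. The highest-numbered genes tested were hardly expressed in either depot: Hoxc10 was at most 0.238 CPM in the 6 libraries and at a mean of 20.9 CPM in iWAT, and Hoxa10 at most 0.0793 CPM beside 9.62 CPM in iWAT. Among brown pads, Hoxc8 had a mean of 7.21 CPM and Hoxa7 of 8.22 CPM in iBAT.

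**Figure D5:**
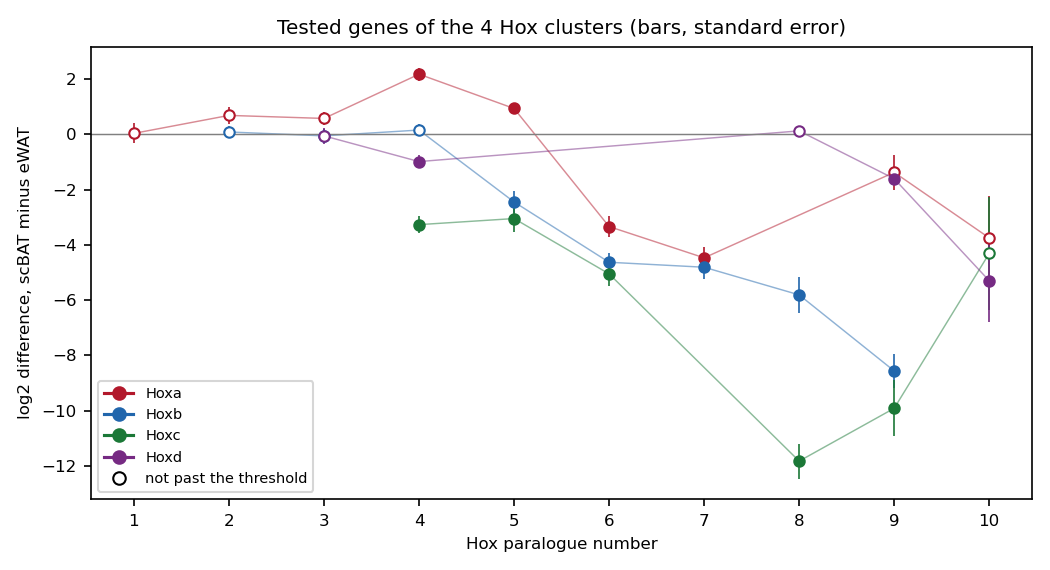
log2 difference, scBAT minus eWAT, with its standard error for every tested gene of the 4 Hox clusters by paralogue number, filled where the adjusted p was under 0.05. Hoxa lies below 0 from number 6, Hoxb5 to Hoxb9 lie at -2.45 or less, Hoxc is below 0 throughout, and points for genes without counts in scBAT depend on the prior count of the fit.

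Neck and somite regulators as a list were near the background, with single factors far apart between the depots. Of 32 tested 11 rose (34.4%) and 9 fell (28.1%), and 7 rose without eWAT library 1 or without scBAT library 2. Tbx1, a factor of the pharyngeal region, was at 14.2, 15.8 and 14.5 CPM in scBAT and 0.0355, 0.952 and 0.282 CPM in eWAT (5.15, SE 0.72, adjusted p = 0.000184). Shox2 was at 13.0, 11.3 and 13.6 CPM against 0.461, 0.159 and 0.188 CPM (5.52, SE 0.62, adjusted p = 4.07e-05), and Tbx15 rose by 4.48 (SE 0.56). The even values of Tbx1 and Shox2 in scBAT contrasted with those of Pax9, another pharyngeal factor, at 6.65, 17.3 and 1.33 CPM, which were ordered by library as the salivary genes were. Of 10 tested salivary genes 5 rose, but 2 rose without scBAT library 2, eWAT library 1 or eWAT library 3, 3 without scBAT library 1 and 10 without eWAT library 2. Lhx8, a factor found in brown fat, was at 6.77, 3.87 and 5.52 CPM in scBAT and at 0, 0.0793 and 0.0627 CPM in eWAT, a ratio of 114 with an interval of 43.9 to 420. In iBAT the mean of Tbx1 was 0.171 CPM and that of Shox2 1.06 CPM.

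Regulators of visceral fat and mesothelium were lower in scBAT in 15 of 20 tested cases, 2 of them also on the mesothelial list, and Tbx5, a T-box factor of heart and forelimb, rose (4.27, SE 0.68, adjusted p = 0.000421). Wt1 (chr2:105126529-105173616 in GRCm38), a factor of visceral adipose progenitors and mesothelium, had no count in scBAT and 18.1, 19.6 and 21.7 CPM in eWAT, at least 329-fold higher (adjusted p = 2.69e-05). Bnc1, a zinc finger factor, was likewise at 0 in scBAT and at least 230-fold higher in eWAT. Tcf21, a marker of visceral stroma, had 2 counts in scBAT and 8.09, 7.77 and 7.56 CPM in eWAT. Gata6 was measured in both depots, at 2.17, 2.63 and 2.73 CPM against 24.7, 27.0 and 24.7 CPM (-3.34, SE 0.22, adjusted p = 1.68e-06). Isl1 and Gata5 were at 0 in scBAT and at least 90.0-fold and 71.3-fold higher in eWAT.

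Genes of mesothelial cells were lower in scBAT by the widest margin. Of 14 tested members 13 fell, at a median of -7.00, and 4 members were at 0 in scBAT. Upk3b (chr5:136038496-136046487 in GRCm38), which codes for a uroplakin, had no count in the scBAT libraries and 186, 160 and 169 CPM in eWAT, at least 2855-fold higher (adjusted p = 6.67e-05). Upk1b was at 0 against 49.1, 38.8 and 44.1 CPM, at least 732-fold higher. Msln, mesothelin, was at 0.0621, 0.336 and 0 CPM against 117, 76.8 and 94.3 CPM, a ratio of 686 with an interval of 333 to 1707. Krt19, a keratin of simple epithelia, fell by 7.32. The sums over the 14 genes were 770, 625 and 820 CPM against 52.5, 74.2 and 33.0 CPM in scBAT. Other genes with large differences were Slpi, a protease inhibitor, with a ratio of 641 (interval 338 to 1402), Lrp2, an endocytic receptor, at least 249-fold, Pkhd1l1, lower by 7.44 (SE 0.28), and Col6a5, a collagen VI chain, lower by 8.17 (SE 0.71).

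Macrophage and stromal genes were lower in scBAT. Of 20 tested macrophage genes 18 fell, at a median of -1.80, and the 20-gene list summed to 515, 545 and 498 CPM in scBAT and 1820, 1824 and 1977 CPM in eWAT. Csf1r, the receptor for the growth factor of macrophages, was at 50.5, 54.2 and 46.6 CPM against 198, 191 and 196 CPM (-1.95, SE 0.12, adjusted p = 1.28e-06). Cd68 fell by 2.20 and Ccr2, the receptor of recruited monocytes, by 3.21. Marco, a scavenger receptor, was at 0 in scBAT and varied in eWAT, at 0.887, 1.63 and 7.24 CPM. Of 13 genes of antigen presentation 9 fell. In the edgeR test none of the 11 tested B cell genes and none of the 12 tested T cell genes passed, and the count at an unadjusted p under 0.05 was 0 for both. DESeq2 called 1 B cell gene lower and no T cell gene, and limma-voom called none. Without iWAT library 2 edgeR called 2 B cell genes and 1 T cell gene lower, and without all iWAT libraries 3 and 1. The B cell list summed to 8.95, 7.96 and 6.85 CPM in scBAT and to 8.62, 11.1 and 51.6 CPM in eWAT. The T cell list summed to 18.8, 17.1 and 12.1 CPM in scBAT and to 22.0, 22.6 and 19.5 CPM in eWAT. In iWAT the sums were 1849, 106 and 2546 CPM and 1251, 81.1 and 1933 CPM. These iWAT values enter the shared estimate of the spread, so the lack of calls does not show equal levels.

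Of 22 genes of collagen and matrix 19 fell, at a median of -1.65, and 11 fell without scBAT library 1 and eWAT library 3 together or without scBAT library 2 and eWAT library 2 together. Col15a1, a basement membrane collagen, was at 46.3, 50.5 and 45.7 CPM in scBAT and 723, 721 and 644 CPM in eWAT (-3.87, SE 0.36, adjusted p = 1.19e-05), and Fn1, fibronectin, fell by 2.91. Col12a1 was the member that rose (0.93, SE 0.22, adjusted p = 0.00468). Of 18 progenitor genes 9 fell and 1 rose, and 5 fell without scBAT library 1 and eWAT library 3 together. Pdgfra, a receptor of adipose progenitors, fell by 1.56 and Dpp4, a marker of early progenitors, by 2.23, whereas F3, tissue factor, rose by 1.01. Of 16 endothelial genes 4 fell, a share of 25.0% beside 25.8% of all genes, and 8 fell without the iWAT libraries. Vwf, von Willebrand factor, fell by 1.59. Of 12 tested genes of Schwann cells and nerve 8 rose and 2 fell, and S100b among those that rose is also on the thermogenic list. Cdh19 was at 8.82, 7.39 and 8.44 CPM in scBAT and 0.568, 1.03 and 0.533 CPM in eWAT (3.53, SE 0.48, adjusted p = 0.000149), and Sox10 was at 4.85, 10.4 and 2.73 CPM, in the order of the salivary genes.

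Complement genes were in the main lower in scBAT, and retinoid genes were lower more often than higher. Of 22 complement genes 17 fell. None rose in edgeR, DESeq2 or limma-voom, and the 17 were also the only ones with an unadjusted p under 0.05 in edgeR. C6, a component of the membrane attack complex, was at 0.745, 0.896 and 1.01 CPM in scBAT and 43.2, 49.0 and 38.8 CPM in eWAT (-5.62, SE 0.31, adjusted p = 7.85e-07), and C2 fell by 4.34 and Cfb by 3.43. Of 18 genes of retinoid handling 9 fell and 2 rose, and 4 rose without iWAT library 2 or without iWAT library 3. Aldh1a2, which makes retinoic acid, was at 0.621, 0.504 and 0.761 CPM against 29.2, 26.9 and 28.8 CPM (-5.49, SE 0.28, adjusted p = 5.95e-07), Aldh1a1 fell by 3.71, and Rarb, a retinoic acid receptor, rose by 2.44 (SE 0.30). Agt, angiotensinogen, fell by 3.74 (SE 0.75), and Kng2, a kininogen, rose by 4.83 (SE 0.43) from 2.63, 4.16 and 2.16 CPM to 103, 55.1 and 96.2 CPM.

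Growth factors and their inhibitors were lower in scBAT in 21 of 29 cases and higher in 2. Nog, which codes for the BMP inhibitor noggin, was at 0.497, 0.0560 and 0.254 CPM against 9.48, 7.49 and 9.94 CPM (-5.05, SE 0.63, adjusted p = 8.30e-05). The fibroblast growth factors Fgf10 and Fgf1 fell by 2.99 and 2.96. Among 24 Wnt pathway genes 13 fell and 2 rose. Rspo1, a Wnt agonist, was at 0.994, 0.672 and 0.698 CPM against 43.4, 38.2 and 41.8 CPM (-5.70, SE 0.31, adjusted p = 8.14e-07), whereas Lgr6, a receptor for R-spondins, was at 34.2, 15.5 and 38.4 CPM against 0.390, 1.07 and 0.627 CPM (5.40, SE 0.60, adjusted p = 3.73e-05). Wnt2b fell by 4.69 and Wnt11 rose by 1.29.

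Other enzyme groups moved in both directions. Of 20 genes of branched-chain amino acid breakdown 12 rose and 2 fell, and Bckdha, a subunit of the rate-setting dehydrogenase, was at 742, 745 and 885 CPM in scBAT against 255, 254 and 229 CPM in eWAT (1.68, SE 0.28, adjusted p = 0.000606). Of 17 genes of calcium cycling 11 rose and 1 fell. In scBAT library 1, 4 of the 17 were at over 2 times the mean of the other scBAT libraries, and the part of muscle in these was not tested. Among the genes that rose was the calcium release channel Itpr2, at 432, 419 and 446 CPM against 66.2, 74.5 and 71.7 CPM (2.61, SE 0.18, adjusted p = 2.05e-06). Neither gene overlapped between the depots, and scBAT library 1 did not stand apart in Itpr2. Of 24 peroxisomal genes 10 rose and 2 fell, and 17 rose without the iWAT libraries. The fatty acid transporters of the peroxisome went separate ways, Abcd3 with a rise of 1.88 and Abcd2 at 193, 238 and 261 CPM against 913, 1029 and 861 CPM (-2.02, SE 0.36, adjusted p = 0.000908).

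Among antioxidant genes 12 of 21 rose and 5 fell. Those of the mitochondrial matrix, Txn2 and Txnrd2 of the thioredoxin system, rose by 1.49 and 1.74. Gsta3, a glutathione transferase, was at 6.27, 11.5 and 6.15 CPM in scBAT and 158, 136 and 132 CPM in eWAT (-4.15, SE 0.45, adjusted p = 3.59e-05). Nnt, the transhydrogenase of the inner mitochondrial membrane, was at 7.95, 8.40 and 5.20 CPM against 30.9, 31.5 and 30.0 CPM (-2.10, SE 0.19, adjusted p = 1.21e-05), opposite in direction to most genes of oxidative phosphorylation. Without scBAT library 1 and eWAT library 3 together 7 antioxidant genes rose. Of 18 heme and iron genes 9 rose and 2 fell, and 5 rose without scBAT library 2 and eWAT library 2 together.

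Of 18 genes of cell division 11 fell, and 6 fell without scBAT library 2 or without scBAT library 3. None rose in edgeR, DESeq2 or limma-voom, the last of which called 5 lower, and 13 had an unadjusted p under 0.05 in edgeR. Mki67, a marker of cycling cells, was at 4.53, 5.71 and 3.49 CPM in scBAT and 15.7, 22.1 and 25.3 CPM in eWAT (-2.20, SE 0.49, adjusted p = 0.00335). Immediate early genes, which respond rapidly to stimuli, had 5 members higher (22.7%) and 8 lower (36.4%) of 22 with heat shock genes, not far from the shares of all genes. The nuclear receptors Nr4a1, Nr4a2 and Nr4a3 rose by 2.89, 2.73 and 3.23, whereas Fos was lower in all scBAT libraries than in any eWAT library (-2.19, SE 0.37, adjusted p = 0.000645). Without eWAT library 3, 5 of the 22 were lower, without scBAT library 1 and eWAT library 3 together 2 were higher, and without scBAT library 2 and eWAT library 2 together 3 were higher and 5 lower. Plagl1, an imprinted zinc finger factor, was at 3.48, 2.80 and 3.04 CPM against 130, 137 and 127 CPM (-5.40, SE 0.48, adjusted p = 9.84e-06), and imprinted genes as a list had 3 of 17 higher and 7 lower, and 5 higher without iWAT library 2 or without iWAT library 3.

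Whether scBAT and eWAT differ more, or otherwise, than iBAT and iWAT was tested as the difference of the 2 contrasts, which share no library. It passed for 287 genes, 1.93% of those tested, 143 higher (0.960%) and 144 lower (0.967%). On the simulated data described below, this test recovered 27 of 50 genes changed 4-fold and 3 of 50 changed 2-fold. A gene that did not pass may thus still differ between the pairs. Of 31 thermogenic genes 1 was higher and 1 lower in this test, and the members that passed were Lhx8 and Zic1. Ucp1 had means of 2174 CPM in iBAT and 22.1 CPM in iWAT and did not pass (adjusted p = 0.276). Positional genes were among those named: Tbx1 by 9.49, Shox2 by 8.29 and Tbx15 by 6.16 were higher in the scBAT and eWAT pair, and Zic1 by 9.86 and Hoxc8 by 8.54 were lower. The iWAT libraries differed from each other more than those of the other depots, with a biological coefficient of variation of 42.8% against 15.8% in scBAT and 17.6% in eWAT. In iWAT libraries 1 to 3 the B cell list summed to 1849, 106 and 2546 CPM and the T cell list to 1251, 81.1 and 1933 CPM. Genes of antigen presentation summed to 3995, 1574 and 4785 CPM there. Collagen and matrix genes were highest in library 2, at 8647, 17029 and 4755 CPM. The part of these genes in the pair test was not tested. Without iWAT library 2 the same test passed for 7973 genes, and without any 1 of the 6 scBAT and eWAT libraries for 76 to 97.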

How the data were processed

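RNA from 4 fat depots of mice was sequenced, with 3 libraries per depot. The deposited table holds the authors' read counts per gene, whole numbers whose totals differ between libraries. The submitters' processing notes name the mm10 build, HTSeq 0.6.1p1, Picard 1.119, STAR 2.4.2a, bcl2fastq 1.8.3 and edgeR. The annotation and the strand setting are not given in the sources used here, so overlapping or antisense genes, and genes with close copies such as Amy1, Rpl39l, Serpina3b and the Atp5g genes, are uncertain.

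Of 23420 genes, 4004 had no count, and 14898 passed the filterByExpr filter. All 12 libraries were fitted together with 1 mean per depot (8 residual degrees of freedom) by the robust quasi-likelihood F test of edgeR 4.0.16 in R 4.3.3 with TMM scaling, and p-values were adjusted by Benjamini-Hochberg over all 14898 genes. The SE is the log2 difference divided by the square root of F. CPM and RPKM were computed here. A depot with no count was set to a floor of 3 counts over its libraries, and ratios from few counts carry an exact 95% interval, both for counting error only. Gene positions are from GENCODE for GRCm38, which matched 14756 tested genes.

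Genes were named by a rule: the 12 largest differences per direction at 10 CPM or more without overlap, the 8 largest in CPM, up to 4 per list, members against their list, all paralogues, 26 set genes and the 6 largest pair differences per direction. A further 30 genes were named after their values were seen (Acadvl, Acly, C2, Cebpa, Cfb, Cs, Fabp2, Fgf10, Fn1, Gata5, Gcgr, Gys2, Hoxa10, Hoxb4, Hoxb5, Hoxc5, Kcnk3, Marco, Mrpl35, Ndufa11, Nog, Npr3, Pank1, Pax9, Prkaca, Pygm, Sox10, Sucla2, Thra and Thrb). Some genes the rule names are not reported here. The groups compared and the gene lists were chosen with earlier results of these data known. Alternatives were other scalings, DESeq2 1.42.0, limma-voom (limma 3.58.1), no count filter, a stricter threshold, fewer libraries, each library left out and a replicate block. On simulated data for scBAT against eWAT, 40 of 50 genes changed 4-fold and 16 of 50 changed 2-fold were recovered among 14714 genes, with 1 false call. Another random seed recovered more of both. The changed genes were drawn from those with a mean of at least 50 counts, so the recovery does not hold for genes of few counts. The spread was taken from the fit of all 12 libraries. Each unchanged gene had the same mean in every depot, unlike the measured data, where 51.9% of tested genes passed between scBAT and eWAT.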

Additional observations from a re-analysis of the deposited data

Results flagged for a closer look

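Of the 26 set genes and the 6 genes per direction with the largest values, 17 are given here out of 287 in all that passed. For these 17 the difference between the brown and the white depot itself differed between the pair of scBAT and eWAT and the pair of iBAT and iWAT (scBAT minus eWAT, less iBAT minus iWAT, edgeR, adjusted p under 0.05).

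Among positional factors Tbx1 had a pair difference of 9.49, with mean levels of 14.8 CPM in scBAT, 0.423 CPM in eWAT, 0.171 CPM in iBAT and 3.53 CPM in iWAT. Its brown pads thus lay on opposite sides of their white partners. Shox2 had a value of 8.29 and Tbx15 of 6.16, both also higher in iWAT than in iBAT, at 7.26 against 1.06 CPM and 25.1 against 7.82 CPM. Lhx8, at 6.24, was at similar levels in both brown pads (5.39 and 5.60 CPM) and low only in eWAT (0.0473 CPM) beside 4.13 CPM in iWAT. Zic1, at -9.86, stood at 11.0 CPM in iBAT and at 0 in iWAT, so that its value depends on the prior count of the fit.

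The Hox genes differed in the same direction: Hoxa5 at -2.41, Hoxa7 at -4.36, Hoxb9 at -7.24 and Hoxc8 at -8.54, the last with 7.21 CPM in iBAT and 0.0419 CPM in scBAT. The value of Hoxb9, which had no count in scBAT, depends on the prior count too. Genes nearly absent outside eWAT were Fras1, an extracellular matrix protein, at -5.47, Nkain4 at -5.94, Pkhd1l1 at -5.85, Tmem151a at -5.72 and Serpina3b at -6.89. Alb, albumin, at 5.36, was higher in both white depots, with 17.0 CPM in eWAT and 42.9 CPM in iWAT. Nrn1, neuritin, at 5.52, and Rpl39l, a ribosomal protein gene with close copies, at 6.23, were highest in scBAT, at 19.1 and 13.5 CPM.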

How the results depend on the processing

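Between scBAT and eWAT, 2774 to 4996 genes were higher and 2498 to 5112 lower over all settings, against 3880 and 3851. The count of lower genes moved by over 1.5 times only without scBAT library 1 and eWAT library 3 together (2498). The difference between the 2 depot pairs was the unstable result. Its 287 genes became 1786 with DESeq2, 161 with the replicate number as a block, 64 at an adjusted p under 0.01, 41 without scBAT library 1 and eWAT library 3, and 47 without scBAT library 2 and eWAT library 2. With single libraries left out it ranged from 76 to 7973, the last without iWAT library 2. The cause was not tested. Leaving out 2 libraries and the block on 6 libraries were added after the data were seen.

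Of 373 called genes named by the rule, 345 kept their call and direction with each library left out in turn, 372 in DESeq2, 363 in limma-voom and 366 under the block. Vil1 reversed, to 0.17, without scBAT library 1 and eWAT library 3. The labels do not say whether the replicate numbers pair the samples. Deviations of same-numbered scBAT and eWAT libraries correlated at -0.121, 0.159 and -0.165, and those of differently numbered ones at -0.258 to 0.337. With 3 libraries per depot these values cannot decide it. The block gave 3768 higher and 3705 lower genes. With upper quartile scaling, which moved the median of all genes from -0.04 to -0.13, 3358 were higher and 4389 lower. Depth limits genes of a few counts, whose ratios have wide intervals.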
